A study of Mus musculus with 17 samples.

Results

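The 33 genes described here carry the signal of a DNA double-strand break, repair it by homologous recombination, or belong to the Fanconi anaemia pathway of crosslink repair. They were chosen by name: a probe was taken where its gene name on the array was that of a member, and the brightest probe of a gene stood for it. All 33 genes were on the array, with 46 probes in all, and all 33 passed the filter on dim probes, out of 27637 gene names tested.

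RNA of mouse intestinal cells was measured on 17 single-colour arrays. The cells were sorted by fluorescence into LGR5hi and LGR5lo fractions from LGR5-GFPki mice, a knock-in line whose green fluorescence reports Lgr5, the receptor that marks dividing stem cells of the crypt base. The labels call both fractions intestinal stem cells (ISCs), and every group carries the same knock-in allele. Mice were either left without irradiation, giving 4 LGR5hi and 5 LGR5lo arrays, or given 12 Gy of gamma-rays and sampled 3 hours later, giving 4 arrays of each fraction. Each group held 2 arrays of female mice. Age, strain background and the number of mice behind an array are not given in the sources used here, so p-values measure the spread between arrays, part of which may be technical.

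A double-strand break is first held by the MRE11-RAD50-NBN complex, which activates the kinase ATM. ATM phosphorylates histone H2AX in the surrounding chromatin, where MDC1, RNF8, RNF168 and TRP53BP1 then gather. In S and G2 phase the ends are cut back to single strands, coated by RPA and, with the BRCA proteins, made to invade the sister chromatid; the sister chromatid serves as the template. Crosslinked DNA is fed into the same route by the Fanconi proteins. Many of these genes are transcribed mainly in dividing cells.

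Promoter letters are shown for 4 genes that fell in irradiated LGR5hi cells (Bard1, Mdc1, Fancb and Rad54l) and for Brca2, which did not pass the test there. Each run is the 250 bases before the start site in RefSeq's GRCm38.p6 annotation, 5′ to 3′ on the gene's strand. Capitals mark matches on either strand to TTCCCGC (an E2F site), CCAAT (the NF-Y box) or TTTGAA (a cell cycle homology region, CHR); no 2 of the matches shown overlap. The Bard1 run lies at chr1:71102973-71103222 on the minus strand, Mdc1 at chr17:35841248-35841497 on the plus strand and Fancb at chrX:164980342-164980591 on the plus strand. Rad54l, with 1 of its 2 windows shown, lies at chr4:116123691-116123940 on the minus strand, and Brca2 at chr5:150522371-150522620 on the plus strand.
Bard1: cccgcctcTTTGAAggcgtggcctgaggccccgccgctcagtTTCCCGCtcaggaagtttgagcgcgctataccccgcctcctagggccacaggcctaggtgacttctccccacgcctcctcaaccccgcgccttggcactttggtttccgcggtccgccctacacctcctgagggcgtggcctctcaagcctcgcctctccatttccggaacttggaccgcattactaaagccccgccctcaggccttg
Mdc1: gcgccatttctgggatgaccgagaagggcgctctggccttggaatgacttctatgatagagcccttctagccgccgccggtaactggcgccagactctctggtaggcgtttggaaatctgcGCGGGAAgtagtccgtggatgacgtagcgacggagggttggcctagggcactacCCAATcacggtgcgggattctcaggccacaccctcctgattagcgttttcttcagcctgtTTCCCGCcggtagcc
Fancb: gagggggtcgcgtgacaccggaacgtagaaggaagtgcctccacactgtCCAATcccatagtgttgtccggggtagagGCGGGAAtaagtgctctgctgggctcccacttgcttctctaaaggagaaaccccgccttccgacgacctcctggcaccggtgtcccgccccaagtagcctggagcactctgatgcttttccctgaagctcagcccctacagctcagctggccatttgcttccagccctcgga
Rad54l: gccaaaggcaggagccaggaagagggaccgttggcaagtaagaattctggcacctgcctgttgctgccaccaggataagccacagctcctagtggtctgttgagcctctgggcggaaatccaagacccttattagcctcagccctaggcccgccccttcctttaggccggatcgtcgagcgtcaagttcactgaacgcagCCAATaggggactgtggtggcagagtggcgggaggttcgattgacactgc
Brca2: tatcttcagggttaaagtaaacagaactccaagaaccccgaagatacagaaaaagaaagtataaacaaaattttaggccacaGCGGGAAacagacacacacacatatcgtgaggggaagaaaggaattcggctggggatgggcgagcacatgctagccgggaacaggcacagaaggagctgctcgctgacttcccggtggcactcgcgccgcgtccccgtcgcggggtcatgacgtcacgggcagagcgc

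In Bard1 a CHR match stood at -242 to -237 and an E2F match at -208 to -202, counted from the start site. The Fancb run held a CCAAT at -201 to -197 and an E2F match at -172 to -166. Mdc1 had E2F matches at -129 to -123 and -15 to -9 with a CCAAT between them at -75 to -71. The Rad54l run held only a CCAAT, at -50 to -46, and the Brca2 run only an E2F match, at -168 to -162. Over the full windows of 300 bases, from 250 before to 50 after the start, 24 of the 33 genes had an entry. TTCCCGC was present in 13 of these 24 genes (54.2%) against 5.29% of all 27025 genes in the table and 6.84% of its protein-coding genes. CCAAT was present in 16 of 24 (66.7%) against 41.1% of all genes, and TTTGAA in 2 of 24 (8.33%) against 20.2%. The p53 response element was found in 0 of 24 and in 0.074% of all genes. Of the 8 genes with a window that fell in irradiated LGR5hi cells, 7 held CCAAT and 3 held TTCCCGC; of the 16 others, 9 held CCAAT and 10 held TTCCCGC. All motifs were searched on both strands. These counts describe letters in a window and were not tested.

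A level below is the log2 signal of the probe minus the 75th percentile of its array, so 1 unit is a factor of 2. The 75th percentile lay between 286 and 627 intensity units, and on 15 arrays the share of spots well above background was 58.9% to 73.9%. Non-irradiated LGR5lo replicate 2 stood apart with 95.6% and a spike-in slope of 0.79. Non-irradiated LGR5lo replicate 4, which also gave a low Atm reading, has a recorded spike-in slope of 0 and 60.9% of spots above background. Non-irradiated LGR5hi replicate 1 was rebuilt from the deposited series table because its scanner file was damaged. Cdkn1a, the p53 target that halts the cell cycle, was 4.91 ± 0.31 (SE) log2 higher after irradiation in LGR5hi and 2.90 ± 0.30 in LGR5lo (limma adjusted p = 4.1e-08 and 1.4e-05). Lgr5 was 3.14 ± 0.28 higher in LGR5hi than in LGR5lo before irradiation and 2.89 ± 0.29 higher after it (limma adjusted p = 2.8e-06 and 1.2e-05). Irradiation itself lowered Lgr5, with differences of -1.53 ± 0.29 (SE) in LGR5hi and -1.27 ± 0.28 in LGR5lo (limma adjusted p = 0.0019 and 0.0096).

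In LGR5hi cells 11 of the 33 genes were lower after irradiation and 0 were higher (limma, adjusted p under 0.05). Of all gene names tested, 7.28% were lower and 6.17% higher, 13.5% in either direction. The genes past the threshold lay in the chromatin, BRCA, strand invasion and Fanconi steps: 2 of 6 chromatin marking and adaptor genes, 2 of 4 genes of the BRCA complexes, 3 of 6 strand invasion factors and 4 of 5 Fanconi genes. None of the 7 break sensors and checkpoint kinases, the 3 resection genes or the 2 RPA genes passed the test. Their median differences were -0.19, -0.31 and -0.44 log2, against -0.33 for the chromatin genes, and roles were not tested against each other. Atm did pass without 1 outlying array and on its other probe, and Rpa3, outside the 33, fell, as given below. The median difference of the 33 genes was -0.44 log2, against -0.02 over all genes tested, and 30 of the 33 differences were below 0. Where arrays of 2 groups are said below to be separate or not to overlap, this describes single genes. The share of all gene names with separate groups was not counted, so separation cannot be read as particular to these genes. Of the 11 calls, 9 held in each of the 17 fits that left out 1 array; Fancc was called in 12 and Fanca in 15 of these. With arrays centred on their medians 0 of 33 passed (8 once the array that stood apart was left out), and 0 and 2 passed within slides 1 and 2, where the medians were -0.54 and -0.37. Here and below, counts under such other fits stand without the share of all gene names called in the same fit. A shift in these counts can therefore not be told from a shift in calls over all genes.

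**Figure D1:**
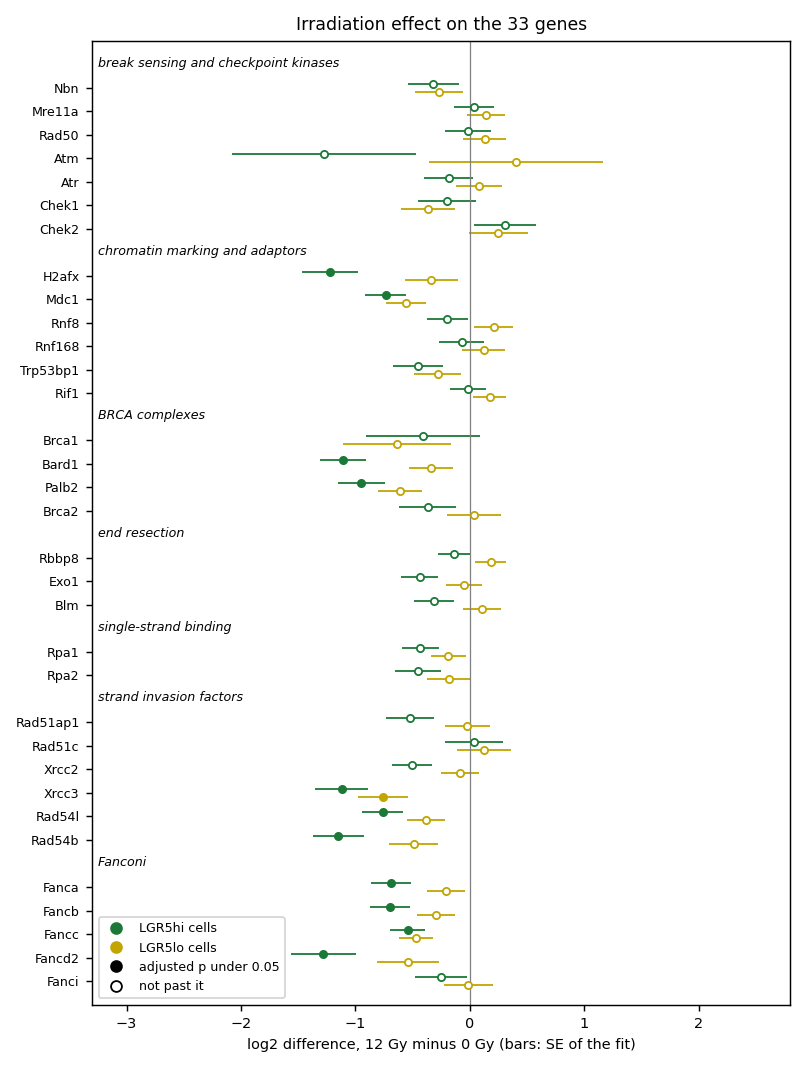
Irradiation effect (12 Gy minus 0 Gy, log2 difference on the x axis) for the 33 genes grouped by role, in LGR5hi (green) and LGR5lo (yellow) cells; bars are standard errors of the limma fit and filled points passed an adjusted p of 0.05. The 11 filled green points all lie below 0, and 1 yellow point, Xrcc3, is filled.

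Among the sensors, Nbn, the MRE11 complex subunit that binds ATM, had levels of -0.07 ± 0.30 (SD, n = 4) before and -0.39 ± 0.42 after irradiation in LGR5hi. Mre11a, the nuclease of the complex, stood at 1.57 ± 0.13 and 1.61 ± 0.04, and Rad50, its ATPase arm, at 2.23 ± 0.05 and 2.21 ± 0.21. The 95% interval of the Rad50 difference ran from -0.44 to 0.41 log2, and that of Mre11a from -0.34 to 0.41. Atr, the kinase that answers stretches of single-stranded DNA, was at 3.01 ± 0.26 before and 2.82 ± 0.08 after (difference -0.19 ± 0.21 SE). Its effector kinase Chek1 was at -2.85 ± 0.23 and -3.05 ± 0.46. Chek2, the effector of ATM, had the highest difference of the 33 genes, 0.31 ± 0.27 (SE), from 0.10 ± 0.47 to 0.40 ± 0.40 (SD, n = 4), with an adjusted p of 0.61. The levels of all these sensors overlapped between the irradiated and non-irradiated LGR5hi arrays.

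Atm itself, the apical kinase, was read by 2 probes. Both were lower in irradiated LGR5hi cells, and 1 of them passed the test. On the brightest probe (chr9:53245871-53245930, mm9) its levels in non-irradiated LGR5hi were 0.90, 0.85, 1.38 and 1.19, and after irradiation -0.02, -0.27, 0.44 and -0.95. Those groups did not overlap, yet the difference of -1.28 ± 0.80 (SE) had an adjusted p of 0.41. In non-irradiated LGR5lo the same probe read 0.36, -0.23, 0.80, -4.45 and 0.11, so that replicate 4 lay far below the others and widened the spread shared by all groups. Without that array the LGR5hi difference kept its size, -1.28 ± 0.27 (SE), with an adjusted p of 0.0041; over the 34 alternatives its adjusted p ran from 0.00197 to 0.654. The other Atm probe (chr9:53256167-53256226), printed on 10 spots against 1, did not show the low array. In LGR5hi it read -0.72, -0.74, -1.01 and -0.14 before and -1.52, -1.53, -1.31 and -1.63 after irradiation, and in a fit of all 41480 kept probes the difference of -0.85 ± 0.25 (SE) had an adjusted p of 0.039. In irradiated LGR5lo the brightest probe read -0.31, -0.41, -0.12 and -0.31, a difference of 0.40 ± 0.76 (SE) with the low array included. The low array pulled down the mean before irradiation, while the LGR5lo medians were 0.11 before and -0.31 after. Over the 34 alternatives this difference ran from -0.71 to 1.61 log2 with no call, so its sign depended on the arrays and settings used. In LGR5lo the other probe read -1.16, 0.02, -1.19, -0.92 and -1.14 before and -2.15, -2.01, -1.79 and -1.63 after irradiation. Replicate 2, the array that stood apart, gave the 0.02 and so raised the mean before irradiation. With it included, the difference was -1.02 ± 0.24 (SE) log2 in the fit of all kept probes (adjusted p = 0.019). In that fit of probes, 6.51% of all probes were lower in irradiated LGR5hi and 2.63% in irradiated LGR5lo.

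**Figure D2:**
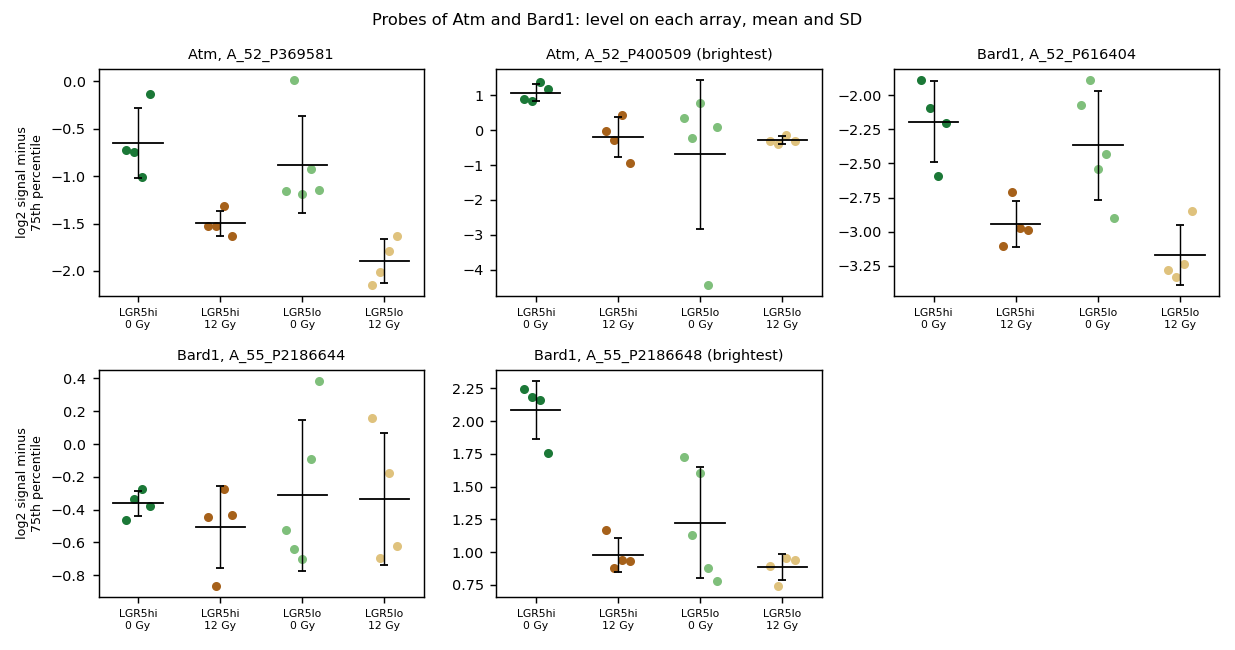
Level on each array (y axis, log2 scale, relative to the 75th percentile) for the probes of Atm and Bard1 in the 4 groups, with the mean (line) and SD (bar). On the brightest Atm probe 1 non-irradiated LGR5lo array reads -4.45, and of the 3 Bard1 probes A_55_P2186644 shows the smallest difference between irradiated and non-irradiated LGR5hi cells.

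H2afx, the histone whose phosphorylated form marks break sites, fell in LGR5hi (probe at chr9:44144033-44144092, mm9). It read 4.999, 4.59, 4.77 and 4.24 before and 3.67, 3.63, 3.30 and 3.11 after irradiation, a 2.33-fold difference of -1.22 ± 0.24 log2 (SE, adjusted p = 0.0027). Every irradiated array was below every non-irradiated one. Mdc1, the adaptor that reads phosphorylated H2AX, read 2.54, 2.19, 2.20 and 2.12 before and 1.36, 1.84, 1.50 and 1.39 after, 1.67-fold lower (-0.74 ± 0.18 SE, adjusted p = 0.012). These groups were separate too. The ubiquitin ligases that act next did not pass, with Rnf8 at 3.45 ± 0.11 and 3.25 ± 0.10, Rnf168 at 2.40 ± 0.11 and 2.33 ± 0.08 (SD, n = 4). For Rnf168 the 95% interval of the difference was -0.49 to 0.35 log2. Trp53bp1, which shields ends from resection, was at 0.996 ± 0.31 and 0.54 ± 0.23 (difference -0.45 ± 0.22 SE, adjusted p = 0.22). Rif1, its partner, was at 1.14 ± 0.10 and 1.12 ± 0.23.

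Of the BRCA complexes, Bard1 and Palb2 fell. Bard1, the obligate partner of BRCA1, read 2.25, 2.19, 2.16 and 1.76 before and 1.17, 0.88, 0.94 and 0.93 after irradiation (probe at chr1:71074294-71074353, mm9). That is a 2.16-fold difference, -1.11 ± 0.20 (SE), the smallest adjusted p of the 33 genes in this comparison, 0.0012. Palb2, the bridge between BRCA1 and BRCA2, read -1.44, -1.58, -0.83 and -1.02 before and -2.39, -2.38, -2.03 and -1.86 after, 1.93-fold lower (-0.95 ± 0.20 SE, adjusted p = 0.0048). Neither gene's groups overlapped. Brca2, which acts on the resected ends, was at 1.95 ± 0.30 before and 1.58 ± 0.20 after (SD, n = 4), a difference of -0.37 ± 0.25 (SE) with an adjusted p of 0.46. The Brca1 probe was dim, above background on 13 of the 16 arrays with flags. In LGR5hi that was 2 of 3 before and 2 of 4 after irradiation. Its levels of -4.08 ± 0.92 and -4.49 ± 0.77 leave an interval of the difference from -1.47 to 0.65 log2.

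The resection genes showed smaller differences. Exo1, a long-range exonuclease, was at 2.46 ± 0.26 before and 2.02 ± 0.15 after irradiation in LGR5hi (SD, n = 4; difference -0.44 ± 0.16 SE, adjusted p = 0.098). Blm, a helicase that unwinds ends and joint molecules, was at 0.97 ± 0.17 and 0.66 ± 0.04, and Rbbp8, the CtIP protein that starts resection, at 2.57 ± 0.15 and 2.44 ± 0.12. The subunits of RPA, which coats single strands, were at 4.50 ± 0.10 and 4.07 ± 0.03 for Rpa1 and at 2.01 ± 0.11 and 1.55 ± 0.11 for Rpa2. Both RPA genes were lower on every irradiated LGR5hi array than on any non-irradiated one, and neither passed the test (adjusted p = 0.099 and 0.18).

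Among the strand invasion factors, 3 genes fell. Rad54b, a DNA translocase, read 0.85, 0.67, 1.08 and 0.44 before and -0.59, 0.07, -0.61 and -0.43 after irradiation (probe at chr4:11542714-11542773, mm9). It was 2.22-fold lower (-1.15 ± 0.23 SE, adjusted p = 0.0023), with replicate 2 the highest of the irradiated arrays and still below all non-irradiated ones. Its paralog Rad54l read 1.44, 1.35, 1.41 and 1.36 before and 0.59, 0.64, 0.58 and 0.70 after, a 1.70-fold difference with little spread (-0.76 ± 0.18 SE, adjusted p = 0.0083). Xrcc3, which acts in homologous recombination, read 1.28, 1.19, 0.71 and 0.50 before and -0.09, 0.16, -0.42 and -0.45 after, 2.17-fold lower (-1.12 ± 0.23 SE, adjusted p = 0.0035; probe at chr12:113041404-113041463, mm9). In both Xrcc3 groups replicates 1 and 2, which shared a slide, were above replicates 3 and 4. Xrcc2, of the same step, went from -1.49 ± 0.16 to -1.998 ± 0.30 (SD, n = 4), which did not pass (adjusted p = 0.072). Rad51ap1 stood at 2.40 ± 0.16 and 1.87 ± 0.08 (adjusted p = 0.13). Rad51c, which forms a complex with XRCC3, stood at 4.76 ± 0.10 and 4.80 ± 0.34, with an interval of the difference from -0.50 to 0.57 log2.

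The Fanconi genes held the lowest difference among the 33 in LGR5hi. Fancd2, which is ubiquitinated when the pathway is active, read -1.74, -2.30, -1.28 and -1.88 before and -3.31, -3.56, -2.80 and -2.65 after irradiation (probe at chr6:113541170-113541229, mm9), 2.43-fold lower (-1.28 ± 0.28 SE, adjusted p = 0.0055). Fancb, Fanca and Fancc, subunits of the core complex that ubiquitinates it, also fell. Fancb read 0.62, 0.60, 0.55 and 0.19 before and -0.26, -0.24, -0.19 and -0.15 after, 1.62-fold lower (-0.70 ± 0.17 SE, adjusted p = 0.012). Fanca read 2.04, 2.31, 1.92 and 1.88 before and 1.29, 1.64, 1.20 and 1.27 after, 1.61-fold lower (-0.69 ± 0.18 SE, adjusted p = 0.015). For Fancc the values were 0.33, 0.13, 0.11 and 0.35 before and -0.41, -0.36, -0.37 and -0.12 after, 1.46-fold lower (-0.55 ± 0.16 SE, adjusted p = 0.028). In all of these genes the irradiated arrays lay below the non-irradiated ones. Fanci, the partner of FANCD2, was at 0.69 ± 0.31 and 0.44 ± 0.23 (SD, n = 4; difference -0.25 ± 0.23 SE, adjusted p = 0.61).

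**Figure D3:**
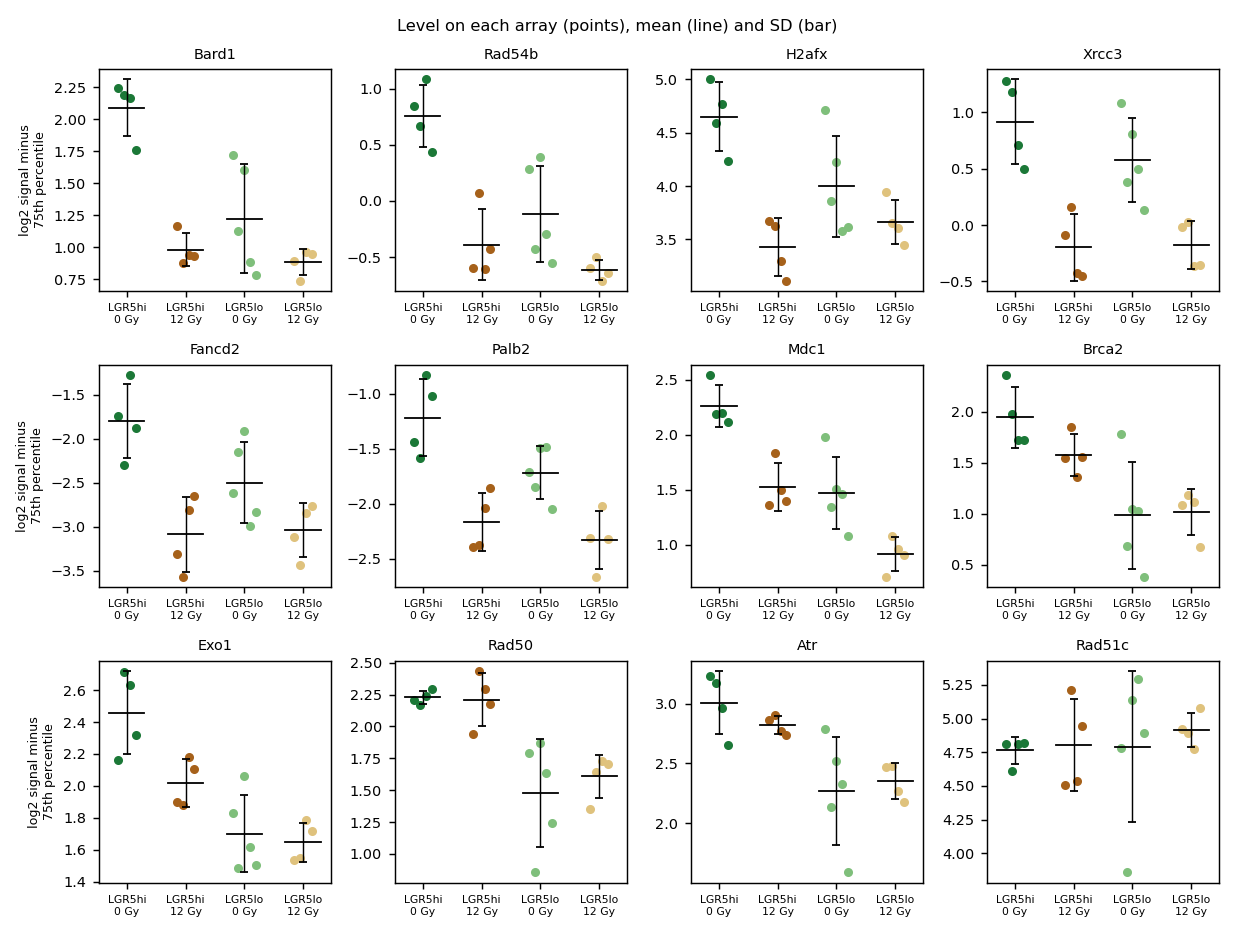
Level of 12 of the genes on each array (y axis, log2 scale, relative to the 75th percentile) in the 4 groups, with the mean (line) and SD (bar). For Bard1, Rad54b, H2afx, Xrcc3, Fancd2, Palb2 and Mdc1 the irradiated LGR5hi arrays lie below all non-irradiated LGR5hi arrays, and for Rad51c the groups overlap.

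In LGR5lo cells 1 of the 33 genes was lower after irradiation and 0 were higher, where 3.02% of all gene names were lower and 4.47% higher (7.49% in either direction). At an unadjusted threshold of 0.05, limma took 6 of the 33, against 24.1% of all gene names. The gene called was Xrcc3, at 1.09, 0.38, 0.81, 0.50 and 0.13 before and -0.02, 0.03, -0.36 and -0.35 after irradiation, 1.69-fold lower (-0.76 ± 0.22 SE, adjusted p = 0.047). Its groups did not overlap, but the call held in 5 of the 17 fits that left out 1 array. The median difference of the 33 was -0.18 log2 against -0.13 over all genes; with arrays centred on their medians both became positive, 0.35 and 0.40. With replicate number as a block 4 of the 33 were lower, as Fancc, Palb2 and Mdc1 joined Xrcc3. With slide as a block it was 4 too, and within slides 1 and 2 it was 0 and 0.

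The genes that fell in LGR5hi had these levels in LGR5lo. H2afx read 4.71, 3.86, 4.23, 3.58 and 3.61 before and 3.94, 3.65, 3.60 and 3.45 after irradiation, an overlap that included all but 1 of the irradiated arrays. Bard1 read 1.72, 1.13, 1.60, 0.88 and 0.78 before and 0.89, 0.74, 0.96 and 0.94 after. Rad54b read 0.28, -0.43, 0.39, -0.29 and -0.55 before and -0.60, -0.50, -0.71 and -0.64 after. In each of these genes the non-irradiated LGR5lo arrays were spread over a wide range, with replicates 1 and 3 the highest. Fancd2 was at -2.50 ± 0.46 (SD, n = 5) before and -3.04 ± 0.30 (SD, n = 4) after, and Rad54l at 0.84 ± 0.41 and 0.46 ± 0.08. Fanca was at 1.48 ± 0.32 and 1.28 ± 0.06, and Fancb at 0.23 ± 0.36 and -0.07 ± 0.06. The differences nearest to the threshold were those of Fancc, from -0.29 ± 0.27 to -0.76 ± 0.15, Mdc1, from 1.47 ± 0.33 to 0.92 ± 0.16, and Palb2, from -1.72 ± 0.24 to -2.33 ± 0.26, with adjusted p = 0.065, 0.066 and 0.071.

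The other genes in LGR5lo showed no call. Before and after irradiation Nbn was at -0.25 ± 0.26 (SD, n = 5) and -0.52 ± 0.22 (SD, n = 4), Mre11a at 1.19 ± 0.39 and 1.33 ± 0.08, Chek1 at -2.87 ± 0.41 and -3.23 ± 0.28, and Chek2 at -0.27 ± 0.37 and -0.02 ± 0.29. Trp53bp1 was at 0.67 ± 0.35 and 0.39 ± 0.27, and Brca1, again dim, at -3.80 ± 0.76 and -4.44 ± 0.53. The resection genes had differences of -0.05 ± 0.16 (SE) for Exo1, 0.10 ± 0.17 for Blm and 0.18 ± 0.14 for Rbbp8.

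Whether irradiation acted differently in the 2 fractions was tested directly, as the LGR5hi effect minus the LGR5lo effect. None of the 33 genes passed (limma, smallest adjusted p 0.63), and 2 were under an unadjusted 0.05. Of all gene names 0.0398% passed, 11 in number, and 6.78% were under an unadjusted 0.05, a share close to that of the 33. The 2 genes were H2afx, with a difference of effects of -0.88 ± 0.34 (SE), and Bard1, with -0.77 ± 0.27 (SE). The 95% interval ran from -1.60 to -0.17 for H2afx and from -1.35 to -0.18 for Bard1. For Bard1 this was the brightest probe. In the fit of all kept probes its other 2 probes gave 0.06 ± 0.30 and -0.12 ± 0.34 (SE). The difference was below 0 for 30 of the 33 genes, with a median of -0.32 log2 against 0.06 over all genes. The effect called in LGR5hi and not in LGR5lo for 10 of the 11 genes is therefore not shown to differ between the fractions.

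Before irradiation 15 of the 33 genes were higher in LGR5hi than in LGR5lo cells and 0 were lower, where 4.62% of all gene names were higher and 4.94% lower (9.56% in either direction). Every role held at least 1 of them: 2 of 7 sensors and kinases, 2 of 6 chromatin genes, 2 of 4 in the BRCA complexes, 3 of 3 resection genes, 1 of 2 RPA genes, 2 of 6 strand invasion factors and 3 of 5 Fanconi genes. The median difference was 0.56 log2 against -0.08 over all genes, and 31 of 33 were above 0. These calls rested on the make-up of the arrays more than those in irradiated LGR5hi cells: only Exo1, Rif1, Bard1 and Mdc1 were called in each of the 17 fits without 1 array. The count was 4 without non-irradiated LGR5hi replicate 1, the rebuilt array, 7 without LGR5hi replicate 2, 8 without replicate 3, 9 without replicate 4 and 6 without LGR5lo replicate 5. With replicate number as a block it was 8, and with the same-numbered arrays of an arm as blocks, a fit in which LGR5lo replicate 5 has no partner, it was 12. Median centring left 0 (5 without the array that stood apart), normexp background correction together with leaving out the rebuilt array left 3, and slide as a block 8, with 0 and 0 within slides 1 and 2. Fitted on the arrays of these 2 groups alone, 0 of the 33 passed. The shares of all gene names called in these other fits are not given here, so the lower counts may not be particular to the 33 genes.

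**Figure D4:**
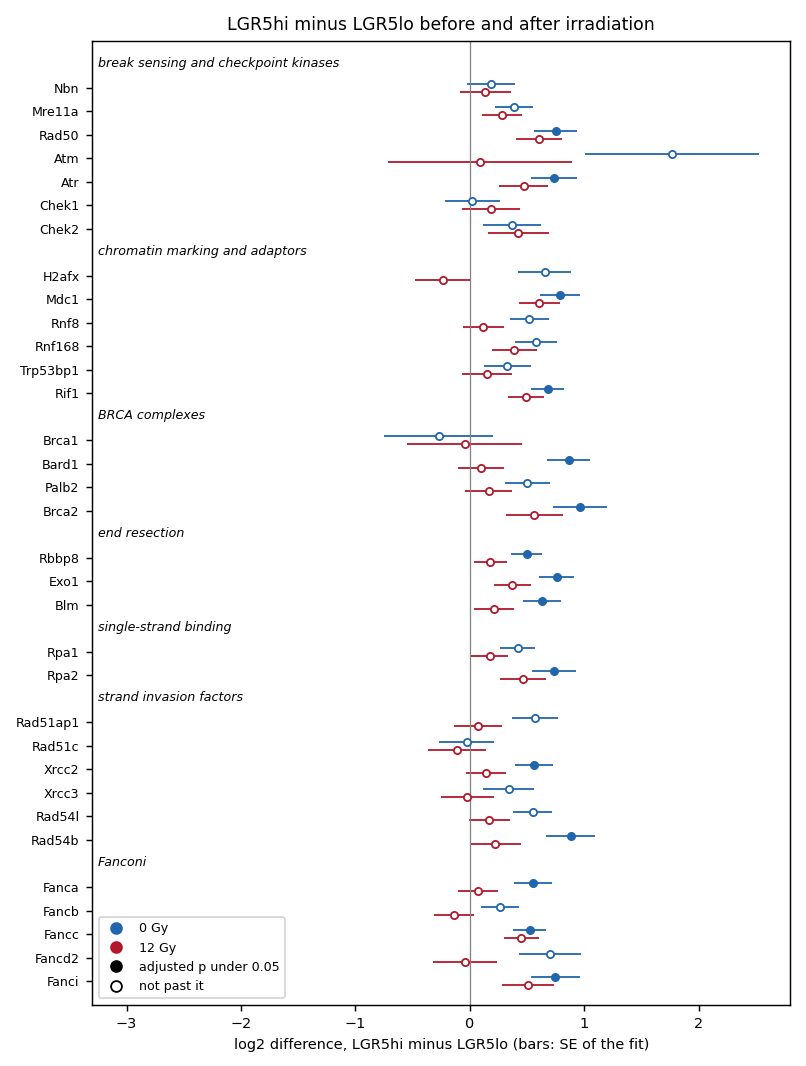
LGR5hi minus LGR5lo (log2 difference on the x axis) for the 33 genes grouped by role, before irradiation (blue) and after 12 Gy (red); bars are standard errors of the limma fit and filled points passed an adjusted p of 0.05. The 15 filled blue points lie above 0 and no red point is filled.

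All 3 resection genes were higher in LGR5hi. Exo1 read 2.16, 2.71, 2.63 and 2.32 in LGR5hi and 1.83, 1.49, 2.06, 1.62 and 1.51 in LGR5lo, 1.69-fold apart (0.76 ± 0.16 SE, adjusted p = 0.0055, the smallest of the 33). The lowest LGR5hi array was above the highest LGR5lo array. Blm, at 0.97 ± 0.17 (SD, n = 4) and 0.34 ± 0.37 (SD, n = 5), was 0.63 ± 0.17 (SE) higher (adjusted p = 0.025). Rbbp8, at 2.57 ± 0.15 and 2.08 ± 0.24 (SD), was 0.49 ± 0.14 (SE) higher (adjusted p = 0.032).

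Rif1, which holds back resection together with Trp53bp1, read 1.07, 1.28, 1.12 and 1.08 in LGR5hi and 0.78, 0.28, 0.61, 0.49 and 0.14 in LGR5lo, 1.60-fold apart (0.68 ± 0.15 SE, adjusted p = 0.0081). Mdc1 read 1.98, 1.34, 1.50, 1.46 and 1.08 in LGR5lo, all below the LGR5hi arrays given above, and was 1.73-fold higher in LGR5hi (0.79 ± 0.17 SE, adjusted p = 0.0088). Bard1 was 1.82-fold higher (0.86 ± 0.19 SE, adjusted p = 0.0084), and its LGR5lo arrays also lay below all LGR5hi arrays. H2afx, at 4.65 ± 0.32 (SD, n = 4) and 3.998 ± 0.47 (SD, n = 5), was not called (0.65 ± 0.23 SE, adjusted p = 0.090). Brca2 had the largest difference among the genes called: 2.36, 1.98, 1.72 and 1.72 in LGR5hi against 1.78, 0.68, 1.04, 1.03 and 0.39 in LGR5lo, 1.95-fold (0.96 ± 0.24 SE, adjusted p = 0.018). LGR5lo replicate 1 reached into the LGR5hi range.

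Of the sensors, Rad50 read 2.21, 2.17, 2.24 and 2.30 in LGR5hi and 1.80, 0.85, 1.87, 1.63 and 1.24 in LGR5lo, 1.68-fold apart (0.75 ± 0.19 SE, adjusted p = 0.021). The lowest of these, 0.85, was replicate 2, the array that stood apart. Atr was 0.74 ± 0.20 (SE) higher in LGR5hi (2.27 ± 0.45 SD, n = 5, in LGR5lo; adjusted p = 0.031). Nbn, Mre11a, Atm, Chek1 and Chek2 did not pass. Rad54b was 0.88 ± 0.21 (SE) higher, Xrcc2 0.56 ± 0.17 from -2.05 ± 0.25 (SD, n = 5) in LGR5lo, and Rpa2 0.74 ± 0.19 from 1.27 ± 0.39, with adjusted p = 0.017, 0.045 and 0.024. Fanci, at -0.05 ± 0.42 in LGR5lo, was 0.75 ± 0.21 (SE) higher, Fancc 0.52 ± 0.15 and Fanca 0.55 ± 0.17, with adjusted p = 0.039, 0.036 and 0.048. The last of these is close to the threshold, and Fanca was called in 3 of the 17 fits without 1 array.

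Bard1, Rad54b, Mdc1, Fanca and Fancc were both higher in LGR5hi before irradiation and lower in LGR5hi after it. They are 45.5% of the 11 genes that fell and 33.3% of the 15 that were higher. The same overlap over all gene names was not counted, so these shares have no background to be judged by. Both comparisons use the same non-irradiated LGR5hi arrays, so the overlap is not evidence of a link. Brca2, Rad50, Atr, Rbbp8, Blm, Rif1, Rpa2, Exo1, Xrcc2 and Fanci were higher in LGR5hi before irradiation without passing the test of irradiation there. H2afx, Palb2, Fancd2, Fancb, Rad54l and Xrcc3 fell without passing the test between the fractions. Nbn, Mre11a, Atm, Chek1, Chek2, Rnf8, Rnf168, Trp53bp1, Brca1, Rpa1, Rad51ap1 and Rad51c, 12 of the 33, were called in none of the 5 comparisons.

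After irradiation 0 of the 33 genes passed between LGR5hi and LGR5lo in the limma fit without pairing, where 2.2% of all gene names were higher in LGR5hi and 4.09% lower (6.29% in either direction). At an unadjusted 0.05, 9 of the 33 were taken, against 17.9% of all gene names. The median difference was 0.17 log2 against 0.05 over all genes. Closest to the threshold was Mdc1, at 1.36, 1.84, 1.50 and 1.39 in irradiated LGR5hi and 0.71, 1.08, 0.96 and 0.90 in irradiated LGR5lo (0.61 ± 0.18 SE, adjusted p = 0.064). These arrays did not overlap, and with the same-numbered arrays of an arm as blocks Mdc1 passed (adjusted p = 0.0148, over all alternatives 0.0148 to 0.9997). Rad50 was at 2.21 ± 0.21 and 1.61 ± 0.17 (SD, n = 4), Rif1 at 1.12 ± 0.23 and 0.63 ± 0.09, and Brca2 at 1.58 ± 0.20 and 1.02 ± 0.23. Without non-irradiated LGR5lo replicate 2, an array outside this comparison that adds to the shared spread, Rad50, Mdc1 and Rif1 passed. With the number within an arm as a random block 4 of the 33 were higher in LGR5hi: Mdc1, Rif1, Rad50 and Fancc (adjusted p = 0.0152, 0.0308, 0.0337 and 0.0434). With slide as a block 2 passed, in a fit of these groups alone 3, and within slides 1 and 2 it was 0 and 0. For Bard1 the irradiated fractions were at 0.98 ± 0.13 and 0.88 ± 0.10, with a 95% interval of the difference from -0.33 to 0.52 log2, and for Xrcc3 at -0.20 ± 0.29 and -0.18 ± 0.21.

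Of the 33 genes, 12 had over 1 probe, and the probes did not always read alike. The 11 genes that fell in LGR5hi had 5 further kept probes, of Bard1, Rad54b, Palb2 and Fancc. All 5 differences were below 0, from -0.75 to -0.14 log2, and 1 passed in the fit of all kept probes. For Bard1 the probe at chr1:71094217-71094276 (mm9) fell by 0.75 ± 0.22 (SE) in LGR5hi (adjusted p = 0.032) and by 0.81 ± 0.20 in LGR5lo (adjusted p = 0.028). The probe at chr1:71074902-71074961, which starts close to the brightest one, differed by -0.14 ± 0.24 (adjusted p = 0.84). The 15 genes higher in LGR5hi before irradiation had 8 further probes; 6 differed in the same direction and 0 passed in the limma fit of all kept probes, where 3.21% of probes were higher. The further Rad50 probe differed by 0.20 ± 0.17 (SE), and those of Bard1 by 0.17 ± 0.20 and -0.05 ± 0.23, against 0.75 and 0.86 for the brightest ones.

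The rest of the pathway was taken from a list of 47 further genes, 44 of them tested. In irradiated LGR5hi cells 5 of these fell and 1 rose, where 7.28% of all gene names were lower and 6.17% higher. The gene that rose was Mus81, a nuclease that cuts joint molecules, from -0.05 ± 0.16 to 1.47 ± 0.18 (SD, n = 4), and it rose in LGR5lo too, from -0.06 ± 0.22 (SD, n = 5) to 0.92 ± 0.25 (SD, n = 4). Its partner Eme1 fell by 0.78 ± 0.18 (SE) in LGR5hi (adjusted p = 0.0065). The others that fell there were Fancg, of the core complex, by 1.11 ± 0.35, the helicase Wrn by 0.75 ± 0.19, Rpa3 by 0.60 ± 0.17 and the fork protection gene Timeless by 0.57 ± 0.17. Fance, Fancf, Fancl and Fancm did not pass in LGR5hi (limma adjusted p = 0.79, 0.36, 0.074 and 0.83). In LGR5lo Wrn and Timeless fell, where 3.02% of all gene names were lower and 4.47% higher. Before irradiation 9 of the 44 were higher in LGR5hi and 0 lower, where 4.62% of all gene names were higher and 4.94% lower. The 9 were Rad52, Fancf, Usp1, Slx4, Eme1, Topbp1, Timeless, Rad1 and Bre. After irradiation 1 was higher, Timeless, where 2.2% of all gene names were.

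Other gene groups moved in the same comparisons. Of all gene names, 7.28% were lower in irradiated LGR5hi and 3.02% in irradiated LGR5lo, and 4.62% were higher in LGR5hi before irradiation. In irradiated LGR5hi cells all 47 tested G2 and mitosis genes fell, with a median of -1.67 log2, and 13 of 46 G1-to-S and replication genes fell, with a median of -0.52. In LGR5lo 24 of the 47 and 4 of the 46 fell, with medians of -0.82 and -0.20, and 1 replication gene rose. Of the 14 end-joining genes 3 fell in LGR5hi and 0 in LGR5lo, with medians of -0.23 and 0.09. Before irradiation 8 G2 and mitosis genes, 17 replication genes and 4 end-joining genes were higher in LGR5hi, with medians of 0.60, 0.58 and 0.46, and 1 replication gene was lower. The mean level of the G2 and mitosis genes on an array ran from 2.22 to 2.91 in non-irradiated and 0.58 to 0.86 in irradiated LGR5hi cells, and from 1.61 to 2.47 and 0.83 to 1.24 in LGR5lo. Of 24 p53 target genes, 21 rose in each fraction and 1 fell in LGR5hi, with medians of 2.69 in LGR5hi and 2.33 in LGR5lo. What part the dividing cells had in the differences of the 33 genes was not tested, and in sorted bulk samples fewer cells that express a gene and less RNA per cell cannot be told apart.

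**Figure D5:**
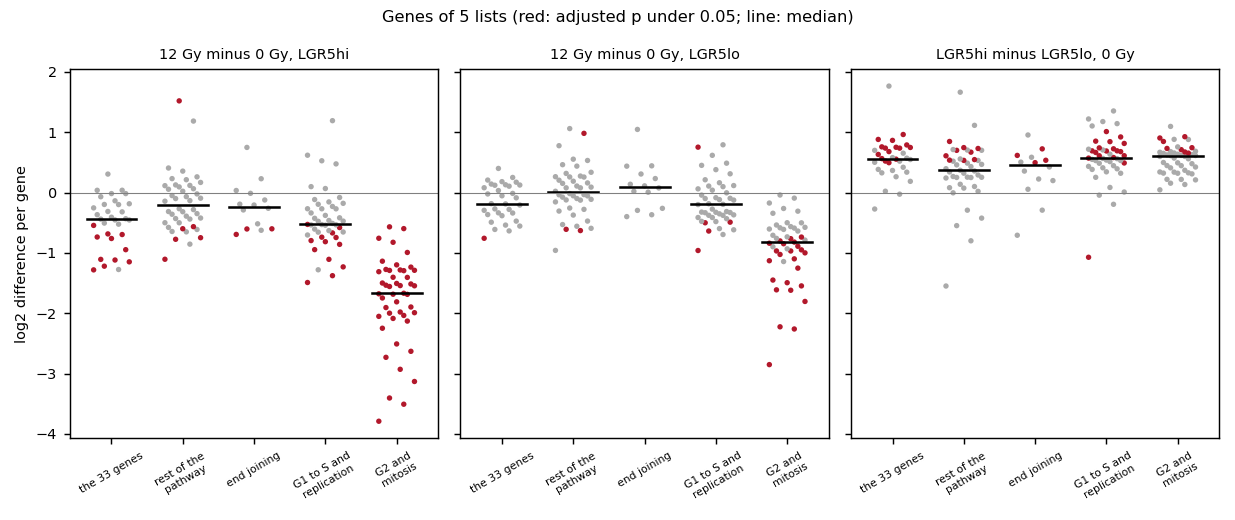
Log2 difference per gene (y axis) for the 33 genes, the rest of the pathway, end joining, G1 to S and replication, and G2 and mitosis, in 3 comparisons; each point is a gene, red points passed an adjusted p of 0.05 and the line is the median. In irradiated LGR5hi cells the median is -0.44 for the 33 genes and -1.67 for G2 and mitosis.

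Markers of other cell types differed between the fractions beside the 15 genes. Before irradiation 11 of 14 crypt base stem cell markers were higher in LGR5hi, while 10 of 10 enteroendocrine, 8 of 8 tuft and 6 of 7 goblet markers were lower, with medians of -3.84, -1.89 and -2.44 log2. The mean enteroendocrine level on an array ran from 0.03 to 1.10 in LGR5hi and from 4.04 to 4.60 in LGR5lo. Lower in LGR5hi were also 1 of 7 Paneth, 0 of 10 enterocyte and 2 of 9 leukocyte, as well as 1 of 6 stromal and endothelial markers, with 1 leukocyte marker higher and 0 of 5 erythrocyte markers called. After irradiation 11 stem cell markers were higher in LGR5hi, and 10 enteroendocrine, 6 tuft, 6 goblet, 1 enterocyte, 1 stromal and 1 erythrocyte marker were lower. Within LGR5hi, irradiation lowered 7 of 14 stem cell markers, 1 enterocyte and 1 erythrocyte marker and raised 1 Paneth, 2 enteroendocrine and 1 leukocyte marker. In LGR5lo 4 stem cell, 1 enteroendocrine and 2 leukocyte markers were lower, and 2 enteroendocrine, 1 leukocyte and 1 stromal marker higher. The part of these cell types in the differences of the 33 genes was not tested.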

How the data were processed

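RNA of 17 sorted samples was measured on single-colour Agilent arrays after Cy3 labelling of 50 ng of RNA, per the labels' protocols. Spot intensities were deposited by the authors as scanner files of Feature Extraction 10.7.3.1 (submitters' processing notes), with background subtracted per the file headers. For the same arrays the authors' deposited series matrix gives log2 values; set against the intensities, these were scaled to a 75th percentile and centred per probe. For non-irradiated LGR5hi replicate 1 the scanner output was damaged, with 15329 of 62976 spots readable. That array was rebuilt from the series table, and 100% of 13422 readable probes lay within 0.02 log2 after a constant of 0.194; it has no flags.

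Levels are log2 processed intensity minus the array's 75th percentile, with control spots and outliers left out. Of 55681 probes, 41480 exceeded background clearly on 4 or more arrays and were kept; the brightest probe stood for each of 27637 gene names. Limma 3.58.1 (R 4.3.3) was fitted to all 17 arrays with Benjamini-Hochberg adjustment over all names and a threshold of 0.05, and was tested on simulated data. The median standard error of an irradiation effect in LGR5hi was 0.26 log2, and the number of arrays limits precision. Probe positions are those of mm9 in the scanner files; exon and UTR annotation was not used here.

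Same-numbered LGR5hi and LGR5lo arrays of 1 arm deviated together (r = 0.122 to 0.456 in 8 of 8 pairs) and share a sex in the labels. Numbers may therefore pair arrays within an arm. Arrays of different numbers were not compared, and same-numbered ones also share a slide. Across arms r was -0.100 to 0.222 for the same fraction and -0.0674 to 0.338 for the other. Replicates 1 and 2 lay on slide 1, 3 and 4 on slide 2 and LGR5lo replicate 5 on slide 3. Named were all 33 genes, each listed pathway gene that was called, and Fance, Fancl and Fancm, which were not. The members and gene lists were chosen with earlier results of these data known. Alternatives were other normalizations, filters, probe rules, covariates, blocks and sets of arrays. 1 further gene of the pathway is not reported here.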

Additional observations from a re-analysis of the deposited data

Results flagged for a closer look

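Single arrays that lay far from the rest of their group were found in 8 of the 132 combinations of gene and group tested by Dixon's criterion, where chance marks about 1 in 20. The lowest was the brightest Atm probe on non-irradiated LGR5lo replicate 4, at -4.45 log2 with the next array at -0.235. Non-irradiated LGR5hi replicate 4 was low for Bard1, at 1.76 with the next array at 2.16, and for Fancb, at 0.187 with the next at 0.551. Both genes were called as lower after irradiation in LGR5hi in each fit that left out 1 array. Non-irradiated LGR5hi replicate 2 was low for Rad51c, at 4.61 against 4.81. Irradiated LGR5hi replicate 2 was high for Rif1, at 1.46 against 1.03, and low for Mre11a, at 1.55 against 1.63. Irradiated LGR5hi replicate 4 was low for Rbbp8, at 2.26 against 2.48, and irradiated LGR5lo replicate 1 was low for Rnf168, at 1.80 against 1.99.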

How the results depend on the processing

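Counts of the 33 genes called are given for irradiation in LGR5hi (11), irradiation in LGR5lo (1), LGR5hi against LGR5lo before irradiation (15) and after it (0); the difference of irradiation effects had 0 in every alternative run. Under quantile normalization the LGR5lo count was 2 and the count after irradiation 3. Median centring gave 0, 0, 0 and 0; leaving out the array that stood apart as well, an alternative chosen after seeing the data, gave 8, 0, 5 and 0. Normexp correction together with leaving out the rebuilt array gave 0 in LGR5lo and 3 before irradiation, and no filter on dim probes 0 in LGR5lo. The mean of a gene's probes gave 2 in LGR5lo. Sex as a covariate gave 3 in LGR5lo and 1 after irradiation. Fits of only the groups compared gave 0 in LGR5lo, 0 before irradiation and 3 after it. Slide as a block gave 4 in LGR5lo, 8 before irradiation and 2 after it, slide 1 alone 0, 0, 0 and 0, and slide 2 alone 2, 0, 0 and 0. The shares of all gene names called under each alternative are not given beside these counts, and the cause of these shifts was not tested.

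With the replicate block the LGR5lo count was 4 and the count before irradiation 8. With the number within an arm as a random block the count after irradiation was 4, and as a fixed block, chosen after seeing the data, 1. In the replicate block fit Xrcc2 joined the genes lower in LGR5hi, and H2afx those higher before irradiation.

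Leaving out 1 array at a time gave 10 to 12 in LGR5hi, 0 to 3 in LGR5lo, 4 to 20 before irradiation and 0 to 3 after it. Leaving out non-irradiated LGR5lo replicates 2 and 4 together, chosen after seeing the data, gave 0 in LGR5lo, 6 before irradiation and 2 after it. Of 5676 values of single genes under the alternatives, 5350 kept their side of the threshold, 259 lost a call, 67 gained one and 0 called values turned sign. Most of the values had no call to lose, and those not called counted as kept even where their sign changed. Dim probes such as Brca1 were limited by background.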
